A study of Mus musculus with 23 samples.

Results

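Skeletal muscle fibres are packed with sarcomeres, and 46 genes that serve them were followed across 23 mouse oral tumours. The genes were chosen by symbol, and every probe that the platform annotation pairs with a listed symbol was taken. The array carried a probe for 43 of the 46 genes (59 probes), out of 16593 named genes on 25697 probes in all. For 35 of them a probe passed the detection rule, that is, it stood above the negative controls with a p-value under 0.05 in 4 or more tumours, and these 35 were among 9732 genes tested. They fell into 12 fast contractile genes (11 tested), 8 slow contractile genes (4 tested), 1 perinatal myosin (tested), 9 sarcomere and cytoskeleton genes shared by fibre types (6 tested), 10 calcium handling genes (7 tested) and 6 energy and oxygen genes (all 6 tested).

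The tumours came from C57BL/6 mice and were taken 21 days into growth, each on its own Illumina MouseRef-8 v2 array. Among tumours of the KHR type, 5 lacked Notch1 altogether (KHR-N-/-), 4 lacked 1 copy of it (KHR-N+/-) and 5 had it intact (KHR). The KR type was represented by 4 tumours without Notch1 (KR-N-/-) and 5 with 1 copy (KR-N+/-), and a KR group with intact Notch1 was not analysed here. The labels do not spell out the codes KHR and KR, nor the promoter or cells in which the alleles were recombined. Biological replicates are numbered in each group, but no animal is named, so each p-value reflects only how far the sampled tumours differ, which may in part be technical.

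In a sarcomere, myosin heads pull on actin filaments when calcium binds to troponin C on the thin filament. The calcium is released from the sarcoplasmic reticulum through the ryanodine receptor and pumped back by SERCA, and fast and slow fibres build these parts from different gene copies. Creatine kinases and myoglobin buffer the energy and oxygen that the fibres spend. The tongue and cheeks contain skeletal muscle, so an oral tumour piece can hold muscle fibres beside the tumour cells. In such bulk RNA, fewer muscle fibres and less muscle RNA per fibre cannot be told apart.

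The 8 members with a probe that did not pass the detection rule were the slow genes Myh7, Myl2, Myl3 and Tnni1, the Z-disc genes Ldb3 and Myot, and the calcium store genes Casq1 and Trdn. Myh2, Neb and Cacna1s had no probe. The 4 epithelial genes tested (Krt5, Krt14, Cdh1 and Trp63) averaged 11.6 to 12.1 on the log2 scale on every array, and none of them passed the test in any comparison. The Notch1 probe averaged 5.67 ± 0.16 (SD) over the KHR-N-/- tumours, 6.80 ± 0.85 over the KHR-N+/- tumours, 8.27 ± 0.38 over the KHR tumours, 6.02 ± 0.38 over the KR-N-/- tumours and 7.72 ± 0.28 over the KR-N+/- tumours. The library labelled KHR-N+/- replicate 3 read 5.68, inside the KHR-N-/- range of 5.40 to 5.80. Without it and KHR replicate 5, which lay above the other KHR tumours for Des, the counts of passing members given below were 21, 3, 0, 6, 12, 4 and 0 in place of 21, 5, 0, 7, 18, 4 and 0. Mean array intensity ran from 142.4 to 366.4. It averaged 261.6 ± 29.0 in KHR-N-/-, 311.5 ± 37.4 in KHR-N+/-, 260.5 ± 46.5 in KHR, 192.4 ± 53.0 in KR-N-/- and 214.0 ± 87.2 in KR-N+/- tumours (SD).

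Muscle promoters are known for short motifs that bind MEF2, MyoD-family, SRF and TEAD factors, so the windows that RefSeq's table (build GRCm38.p6) gives before each transcript start were read, because 21 members rose together in KHR-N-/- against KHR tumours. A window of 300 bases (250 before the start, 50 after it) was found for 35 of the 46 members and searched on both strands. These are not the 35 members tested on the arrays. They include untested genes such as Myl3 and Ldb3, and they lack Tnni2, Tnnt3, Tcap and Sln, which rose. An E-box (CANNTG) lay in the windows of 88.6% of the 35 members with a window, against 75.0% of 27025 genes in the table. A TATA box (TATAAA) was found for 22.9% of members and 15.7% of all genes, and an MCAT motif (CATTCC) for 34.3% and 16.6%. A MEF2 box was found for 22.9% of members (8 of 35) and 3.70% of all genes, and a CArG box for 11.4% and 1.81%. MEF2 and CArG boxes can share letters with the TATA motif, a match is a description of the letters and not a bound site, and the capitals below mark the MEF2 box. The 8 boxes are each shown with 15 bases on either side, 5′ to 3′ on the strand of the gene, chosen after the matches were seen because MEF2 boxes are a known mark of muscle promoters and 8 members held one. They lie at chr11:67199876-67199915 (Myh1, plus strand), chr11:67237615-67237654 (Myh4, plus), chr11:67277010-67277049 (Myh8, plus), chr3:123034996-123035035 (Myoz2, minus), chr2:76982689-76982728 (Ttn, minus), chr3:102086331-102086370 (Casq2, plus), chr15:78206556-78206595 (Pvalb, minus) and chr11:5803852-5803891 (Pgam2, minus).
Myh1: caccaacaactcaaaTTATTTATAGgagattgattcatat
Myh4: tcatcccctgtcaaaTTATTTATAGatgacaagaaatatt
Myh8: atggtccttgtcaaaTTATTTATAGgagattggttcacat
Myoz2: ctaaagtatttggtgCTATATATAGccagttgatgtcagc
Ttn: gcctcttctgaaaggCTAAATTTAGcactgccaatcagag
Casq2: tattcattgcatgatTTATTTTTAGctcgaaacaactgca
Pvalb: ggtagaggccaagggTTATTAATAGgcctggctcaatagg
Pgam2: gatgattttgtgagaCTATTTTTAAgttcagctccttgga

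The 3 myosin heavy chain genes hold the same box, and in each of them the letters tcaaa come just before it. The genes with a box did not move alike in the arrays. Myoz2, Myh1 and Ttn were higher in KHR-N-/- than in KHR tumours, while Pvalb, Casq2, Pgam2, Myh4 and Myh8 did not pass that test. The 250 bases before the start are also given for the brightest member of the fast, slow and calcium genes that the table holds: Myl1, a fast myosin light chain (chr1:66945057-66945306, minus strand), Mybpc1, slow myosin-binding protein C (chr10:88605153-88605402, minus), and Atp2a1, the fast-fibre calcium pump SERCA1 (chr7:126463074-126463323, minus). Here the capitals mark E-boxes, and in Myl1 also the TATA motif and the MCAT motif, both read on the opposite strand.
Myl1: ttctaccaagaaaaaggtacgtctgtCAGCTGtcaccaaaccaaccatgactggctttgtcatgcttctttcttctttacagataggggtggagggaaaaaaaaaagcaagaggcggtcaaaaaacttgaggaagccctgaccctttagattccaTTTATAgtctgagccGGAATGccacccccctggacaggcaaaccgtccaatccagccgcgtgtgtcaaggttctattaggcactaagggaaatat
Mybpc1: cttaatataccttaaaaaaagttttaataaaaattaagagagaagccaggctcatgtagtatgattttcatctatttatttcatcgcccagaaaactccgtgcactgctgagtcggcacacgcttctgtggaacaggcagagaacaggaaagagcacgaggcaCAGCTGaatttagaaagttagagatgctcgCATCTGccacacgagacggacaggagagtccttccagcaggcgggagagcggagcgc
Atp2a1: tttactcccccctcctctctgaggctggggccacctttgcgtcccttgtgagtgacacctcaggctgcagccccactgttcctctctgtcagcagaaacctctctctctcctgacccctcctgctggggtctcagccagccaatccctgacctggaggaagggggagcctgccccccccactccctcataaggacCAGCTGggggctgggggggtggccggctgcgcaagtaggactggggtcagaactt

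Across the 5 groups the members had the lowest mean in KHR tumours for 30 of the 35 genes. The highest mean was in KR-N+/- tumours for 23 genes, in KR-N-/- for 10 and in KHR-N-/- for 2 (Myoz2 and Sln). Averaged over all 35 genes, the log2 intensity was 6.76 ± 0.14 (SD over arrays) for KHR-N-/-, 6.47 ± 0.16 for KHR-N+/-, 6.09 ± 0.18 for KHR, 7.07 ± 0.32 for KR-N-/- and 7.23 ± 0.27 for KR-N+/-. The roles did not all keep this order. Slow contractile genes had their highest mean in KR-N-/- tumours (6.23 ± 0.12), with 6.05 ± 0.23 in KHR-N-/-, 5.63 ± 0.31 in KHR-N+/-, 5.03 ± 0.26 in KHR and 5.85 ± 0.21 in KR-N+/-. Energy and oxygen genes were highest in KR-N+/- (7.11 ± 0.39), with 6.43 ± 0.05 in KHR-N-/-, 6.13 ± 0.26 in KHR-N+/-, 5.78 ± 0.21 in KHR and 6.56 ± 0.44 in KR-N-/-. Calcium genes averaged 6.10 ± 0.17, 5.93 ± 0.21 and 5.76 ± 0.21 in KHR-N-/-, KHR-N+/- and KHR, with overlapping arrays, and 6.65 ± 0.28 in KR-N-/- and 6.87 ± 0.23 in KR-N+/-.

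**Figure D1:**
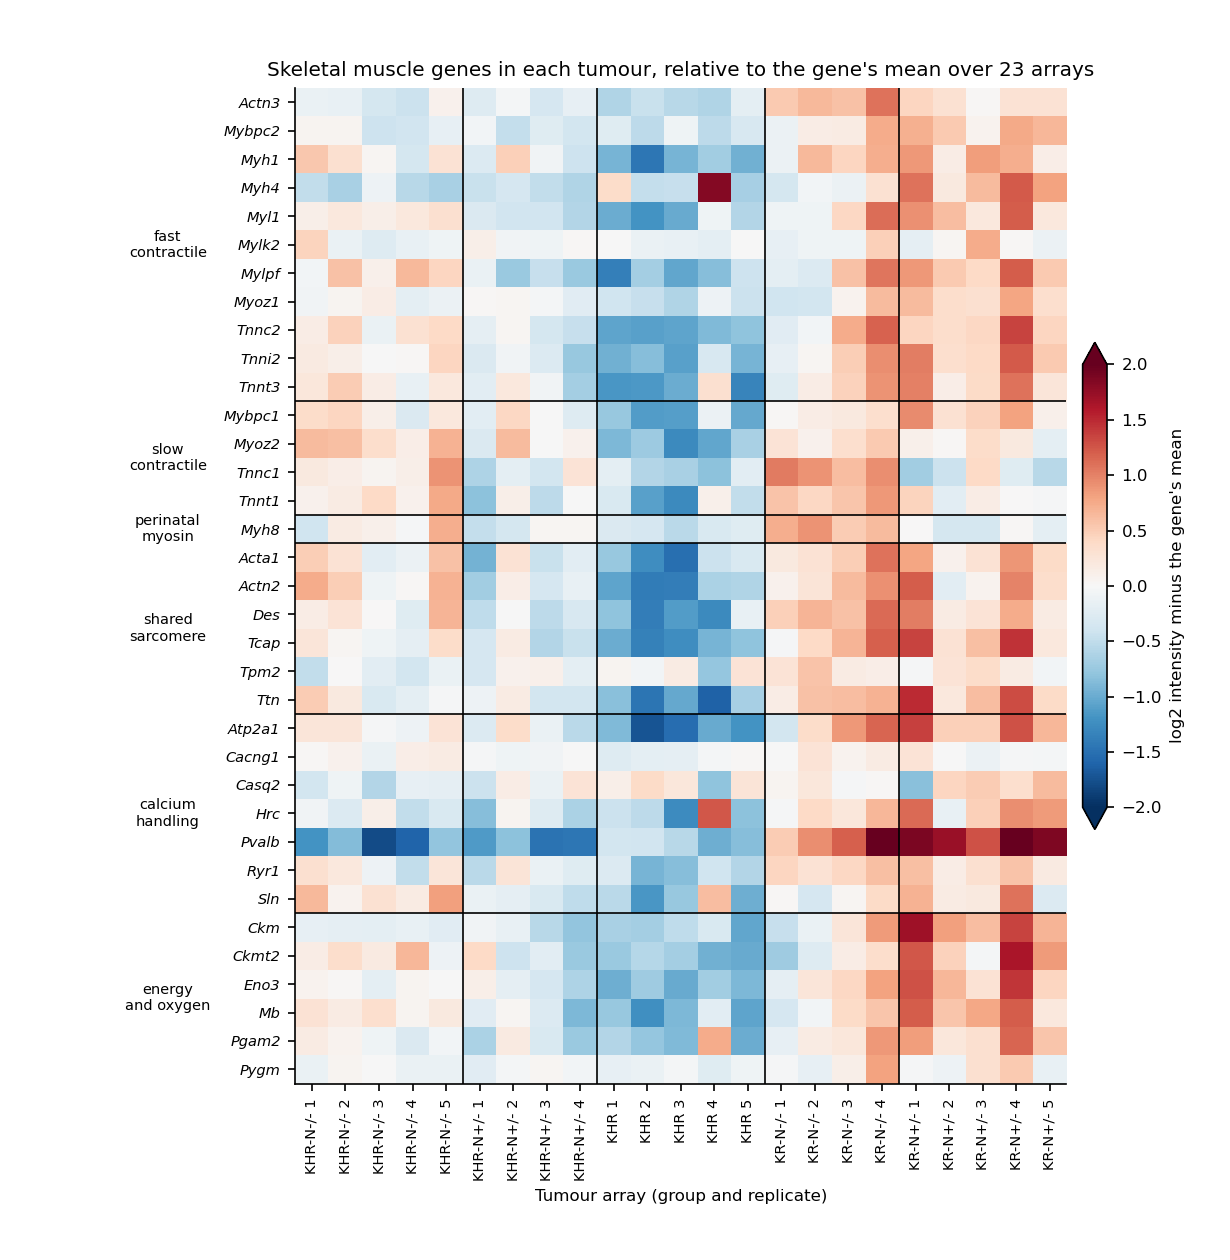
Each cell is the log2 intensity of 1 muscle gene (down, grouped by role) on 1 tumour array (across, by group), minus that gene's mean over the 23 arrays; red is above and blue below the mean, and colours end at 2 and -2. KHR arrays are mostly blue, and the exceptions include a few genes of KHR 4 and Casq2 and Tpm2 in KHR 1, 3 and 5. Pvalb is blue in all KHR-type tumours and red in KR-type tumours.

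**Figure D2:**
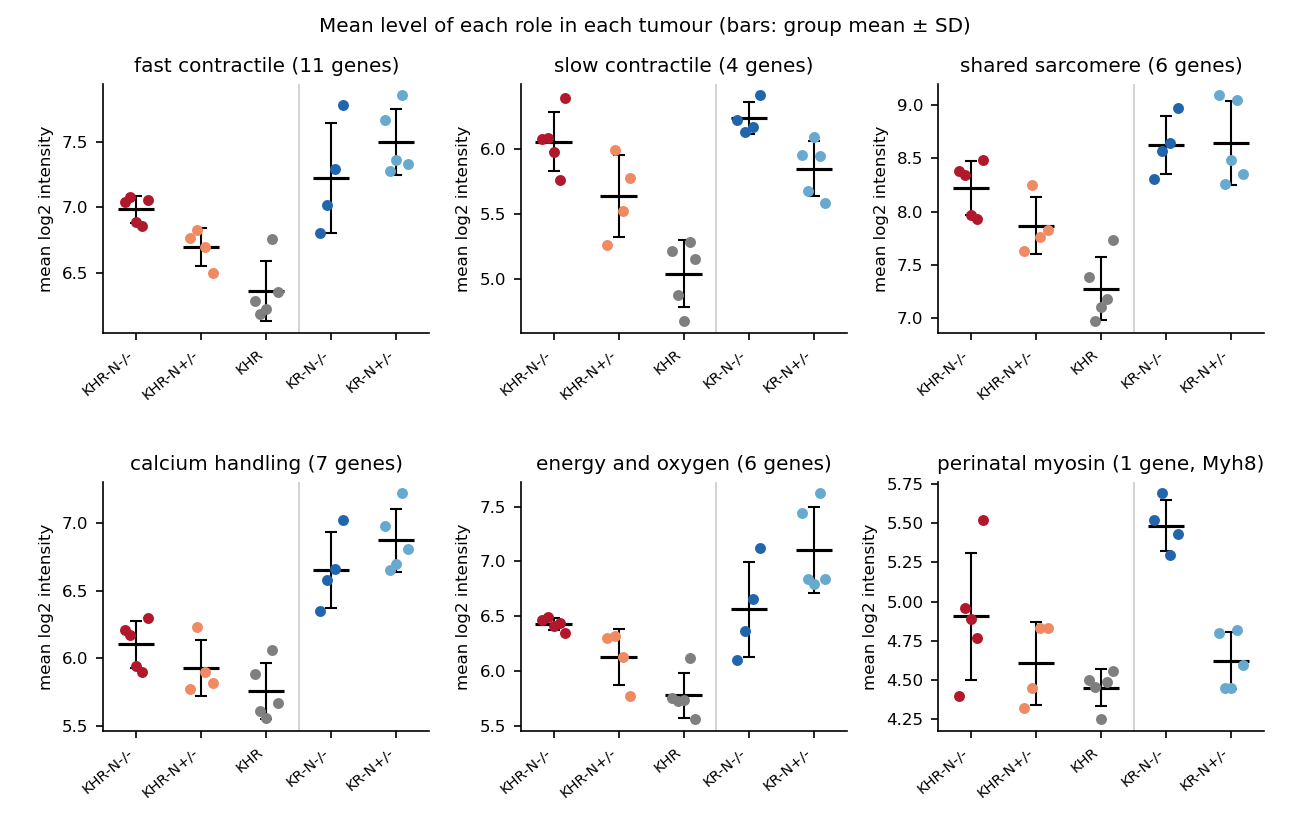
Points are the mean log2 intensity of a role's genes on each array, by group, with bars for the group mean ± SD (n = 4 or 5); each panel has its own vertical scale. Fast, slow, shared sarcomere and energy genes lie higher in KHR-N-/- than in KHR tumours, while in KR-type tumours the slow genes and Myh8 average higher in KR-N-/- and the energy genes higher in KR-N+/-.

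Single tumours stood out within their groups. KR-N-/- replicate 4 gave the highest value of its group for 30 of 35 genes and KR-N-/- replicate 1 the lowest for 24. KHR-N+/- replicate 2 was highest in its group for 21 genes, and among the KR-N+/- tumours replicate 4 was highest for 17 genes and replicate 1 for 13. KHR replicate 4 was highest of the KHR tumours for 14 genes, well above the rest for Myh4, Hrc, Sln, Pgam2 and Tnnt3, and lowest for 8 others. The spread within groups was larger for these genes than for most: the median SD within groups was 0.372 on the log2 scale over the 35 members, against 0.211 over all tested genes. The standard error over beads within an array had a median of 2.95% of the signal over all members and arrays, and of 2.88% over all genes and arrays. The medians of single members ran from 2.08% to 5.04%.

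Loss of both Notch1 copies in KHR tumours came with higher muscle RNA. Of the 35 members, 21 were higher in KHR-N-/- than in KHR tumours at an adjusted p under 0.05 and 0 were lower, while of all 9732 genes 4.57% were called higher and 2.76% lower. The median difference of the members was 0.91 on the log2 scale, against 0.01 over all genes, and 31 of the 35 lay above 0. For 16 members all 5 KHR-N-/- arrays lay above all 5 KHR arrays, against 3.16% of all genes, and for 0 members all lay below, against 1.98%. With array weights 26 members were called higher and 2 lower. The rise took in contractile genes of fast and slow fibres, shared sarcomere genes, the calcium pump and release channel, and myoglobin.

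Among the fast genes, 6 of 11 rose. Tnnc2, the calcium sensor of the fast thin filament, read 8.77, 9.08, 8.48, 8.92 and 9.02 in KHR-N-/- tumours, against 7.56, 7.53, 7.56, 7.73 and 7.81 in KHR tumours. All KHR-N-/- tumours lay above all KHR tumours, by 1.22 ± 0.22 on the log2 scale (SE, 2.32-fold, limma adjusted p = 0.000954). Mylpf, the regulatory light chain of fast myosin, read 8.33, 8.96, 8.48, 9.03 and 8.81 in KHR-N-/- and 7.01, 7.7, 7.34, 7.52 and 7.97 in KHR, again without overlap (1.22 ± 0.23, adjusted p = 0.00163). Myh1, the IIx myosin heavy chain, read 7.95, 7.73, 7.45, 7.06 and 7.71 in KHR-N-/- and 6.49, 5.97, 6.48, 6.72 and 6.46 in KHR (1.16 ± 0.20, adjusted p = 0.000952). Its groups did not overlap either. Myl1, an alkali light chain of fast myosin, read 11.1, 11.2, 11.1, 11.2 and 11.3 in KHR-N-/-, against 10.0, 9.79, 9.97, 10.9 and 10.4 in KHR (0.95 ± 0.22, adjusted p = 0.0076). The KHR-N-/- tumours lay close together, KHR replicate 4 came nearest to them, and the call was lost with median scaling. Tnni2, the fast inhibitory troponin, differed by 0.97 ± 0.20 (adjusted p = 0.0031), and Tnnt3, the fast troponin that anchors it to tropomyosin, by 1.05 ± 0.27 (adjusted p = 0.0147). Tnnt3 overlapped through KHR replicate 4 alone, at 8.17, while the other KHR tumours read 6.53 to 6.86.

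The remaining 5 fast genes did not pass. Myh4, the IIb myosin heavy chain of the fastest fibres, read 4.35, 4.2, 4.75, 4.29 and 4.2 in KHR-N-/- and 5.22, 4.37, 4.39, 6.68 and 4.19 in KHR (-0.61 ± 0.31, adjusted p = 0.267). It was detected on 1 of 5 KHR-N-/- arrays and 2 of 5 KHR arrays, and the KHR mean was set by replicates 4 and 1. Actn3, the fast Z-disc actinin, differed by 0.29 ± 0.12 (adjusted p = 0.155), Myoz1, which ties calcineurin to the fast Z-disc, by 0.36 ± 0.15 (0.169), Mybpc2, fast myosin-binding protein C, by 0.17 ± 0.15 (0.6) and Mylk2, the skeletal myosin light chain kinase, by 0.06 ± 0.16 (0.877). Mylk2 was not well above background on any KHR array.

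All 4 slow genes tested rose. Myoz2, the slow-fibre partner of calcineurin at the Z-disc, had the lowest p of all members here. It read 6.4, 6.37, 6.11, 5.89 and 6.46 in KHR-N-/- tumours, against 4.87, 5.03, 4.49, 4.73 and 5.11 in KHR tumours. Every KHR-N-/- tumour lay well above every KHR tumour, and the difference was 1.40 ± 0.16 (2.64-fold, adjusted p = 1.25e-05). Mybpc1, slow myosin-binding protein C, read 6.47, 6.53, 6.22, 5.82 and 6.32 in KHR-N-/- and 5.34, 4.99, 5.0, 5.98 and 5.08 in KHR (0.99 ± 0.19, adjusted p = 0.00164). KHR replicate 4 overlapped the lowest KHR-N-/- tumour. Tnnc1, the slow and cardiac troponin C, read 5.21, 5.15, 5.07, 5.14 and 5.91 in KHR-N-/- and 4.82, 4.43, 4.37, 4.2 and 4.81 in KHR (0.77 ± 0.20, adjusted p = 0.0155), and this call was lost without KHR-N-/- replicate 5. It was detected on 5 of 5 KHR-N-/- arrays but on 2 of 5 KHR arrays, so the size of the difference rests on values near background. Tnnt1, slow troponin T, read 6.19, 6.26, 6.49, 6.19 and 6.86 in KHR-N-/- and 5.8, 5.01, 4.83, 6.2 and 5.61 in KHR, overlapping through KHR replicate 4 (0.91 ± 0.22, adjusted p = 0.0103). Myh8, the perinatal myosin heavy chain that regenerating fibres also use, read 4.4, 4.96, 4.89, 4.77 and 5.52 in KHR-N-/- and 4.5, 4.46, 4.25, 4.49 and 4.56 in KHR and did not pass (0.46 ± 0.15, adjusted p = 0.0702).

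Of the shared sarcomere genes, 5 of 6 rose. Actn2, the main Z-disc actinin, read 7.99, 7.74, 7.16, 7.27 and 7.95 in KHR-N-/- tumours, against 6.2, 5.86, 5.87, 6.62 and 6.65 in KHR tumours (1.38 ± 0.25, 2.61-fold, adjusted p = 0.0011). Acta1, skeletal alpha-actin, read 10.9, 10.7, 10.2, 10.3 and 11.0 in KHR-N-/- and 9.66, 9.17, 8.91, 9.98 and 10.1 in KHR (1.05 ± 0.25, adjusted p = 0.00863). Both genes separated all tumours of the groups. Ttn, the giant spring from Z-disc to M-line, differed by 1.15 ± 0.23 (adjusted p = 0.00219), Tcap, its cap at the Z-disc, by 1.14 ± 0.23 (0.00302) and the intermediate filament Des by 1.12 ± 0.22 (0.0019). Des overlapped through KHR replicate 5, at 7.28, and is also made by smooth muscle. Tpm2, beta-tropomyosin, which many other cell types make too, read 9.33, 9.84, 9.62, 9.47 and 9.69 in KHR-N-/- and 9.89, 9.78, 10.0, 9.05 and 10.1 in KHR (-0.18 ± 0.16, adjusted p = 0.587). The probes of Tpm2 disagreed: a dimmer probe read 8.28 to 8.86 in KHR-N-/- and 7.19 to 8.16 in KHR, a difference of 1.03 ± 0.21 (adjusted p = 0.00408).

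Calcium genes were divided. Atp2a1, which pumps calcium back into the reticulum of fast fibres, had the largest rise of all members, at 9.97, 9.98, 9.7, 9.63 and 10.0 in KHR-N-/- tumours, against 8.84, 8.01, 8.2, 8.72 and 8.54 in KHR tumours. The groups were fully apart, by 1.41 ± 0.24 (2.65-fold, adjusted p = 0.000816). Ryr1, the release channel, rose by 0.65 ± 0.16 (adjusted p = 0.014), and its 2 other kept probes by 0.68 ± 0.15 (0.00724) and 0.46 ± 0.13 (0.0286). Sln, sarcolipin, which slows SERCA, rose by 0.97 ± 0.26 (adjusted p = 0.024), at 6.52, 5.94, 6.17, 6.03 and 6.69 in KHR-N-/- and 5.33, 4.7, 5.11, 6.49 and 4.9 in KHR. That call was lost without either of 2 KHR-N-/- tumours (replicates 1 and 5) or either of 2 KHR tumours (replicates 2 and 3), and KHR replicate 4 stood inside the KHR-N-/- range. Pvalb, parvalbumin, the soluble calcium buffer of the fastest fibres, had a difference below 0. It read 5.49, 5.81, 4.89, 5.08 and 5.89 in KHR-N-/- and 6.32, 6.3, 6.13, 5.7 and 5.83 in KHR (-0.62 ± 0.27, adjusted p = 0.178), with overlapping arrays. Hrc, a calcium-binding protein of the reticulum (0.16 ± 0.32), Casq2, calsequestrin of slow and heart muscle (-0.31 ± 0.23), and Cacng1, a subunit of the voltage sensor (0.19 ± 0.09), had adjusted p values of 0.842, 0.488 and 0.229.

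Of the energy and oxygen genes, 3 of 6 rose. Mb, myoglobin, read 9.18, 9.05, 9.22, 8.94 and 9.08 in KHR-N-/- tumours, against 8.13, 7.66, 7.99, 8.68 and 7.83 in KHR tumours (1.04 ± 0.21, 2.06-fold, adjusted p = 0.00299). Ckmt2, the mitochondrial creatine kinase of the sarcomere, read 5.75, 5.95, 5.79, 6.27 and 5.51 in KHR-N-/- and 4.86, 5.03, 4.93, 4.64 and 4.6 in KHR (1.04 ± 0.25, adjusted p = 0.0116). Eno3, muscle enolase, read 6.74, 6.69, 6.47, 6.72 and 6.67 in KHR-N-/- and 5.69, 5.96, 5.66, 5.97 and 5.78 in KHR (0.85 ± 0.19, adjusted p = 0.0072). None of these 3 overlapped. Ckm, the cytosolic creatine kinase, read 5.98, 5.97, 5.94, 6.0 and 5.91 in KHR-N-/- and 5.5, 5.47, 5.63, 5.83 and 5.11 in KHR, also apart on every array, yet by less (0.45 ± 0.22, adjusted p = 0.233). Pgam2, muscle phosphoglycerate mutase, read 6.94, 6.84, 6.69, 6.48 and 6.72 in KHR-N-/- and 6.19, 5.99, 5.88, 7.51 and 5.77 in KHR (0.47 ± 0.26, adjusted p = 0.335), with KHR replicate 4 above all KHR-N-/- tumours. Pygm, muscle glycogen phosphorylase, was not well above background on any KHR array (0.07 ± 0.14, adjusted p = 0.853).

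**Figure D3:**
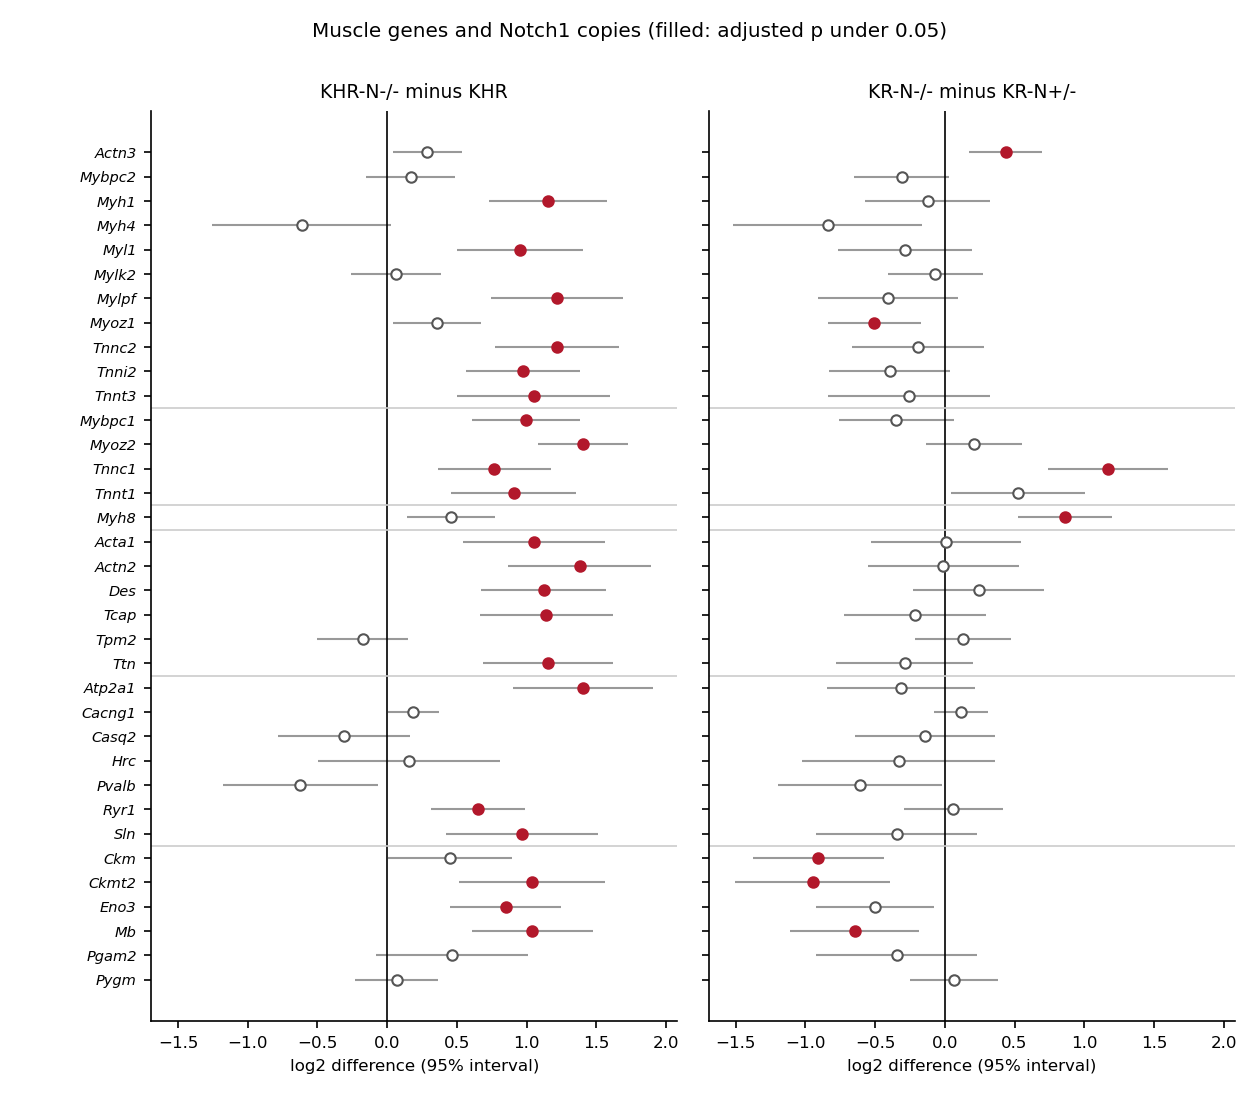
Log2 difference of each tested muscle gene with its 95% interval (limma, 23 arrays), for KHR-N-/- minus KHR (left) and KR-N-/- minus KR-N+/- (right) on a common scale; filled points have an adjusted p under 0.05. On the left 21 genes lie above 0 and are filled; on the right 3 are filled above 0 (Actn3, Tnnc1, Myh8) and 4 below 0 (Myoz1, Ckm, Ckmt2, Mb), and with median scaling none on the right is filled.

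Connective tissue genes were also higher in KHR-N-/- than in KHR tumours. Whether they and the muscle genes moved together from tumour to tumour was not tested. All 7 tested genes of a fibroblast and matrix list (Col1a1, Col1a2, Col3a1, Col5a1, Dcn, Lum and Pdgfra) were higher in KHR-N-/- than in KHR tumours, against 4.57% of all genes. Their median difference was 1.28, and their mean level per array ran from 7.75 to 8.42 in KHR-N-/- and from 6.27 to 7.44 in KHR. The part of these cells in the muscle result was not tested. Of the smooth muscle genes 0 of 6 passed this test (median difference 0.11), and of the epithelial genes 0 of 4 (median 0.16). Of all genes 7.34% passed in either direction, so lists this short cannot show that these cell types were unchanged. The smooth muscle genes Tagln, Myh11 and Myocd were each detected on at most 2 arrays of either group, so their differences rest on values near background.

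With 1 Notch1 copy lost, the genes that rose were a fast myosin, 2 slow genes, titin and the calcium pump. Of the 35 members, 5 were higher in KHR-N+/- than in KHR tumours and 0 were lower, against 0.822% of all genes called higher and 0.432% lower, and the median difference was 0.34 (0.00 over all genes). For 7 members all 4 KHR-N+/- arrays lay above all 5 KHR arrays, against 1.93% of all genes (1.46% lay below on every array). Myoz2 read 5.48, 6.4, 5.76 and 5.85 in KHR-N+/- tumours, all above the KHR tumours (1.03 ± 0.17, 2.04-fold, adjusted p = 0.00388). Atp2a1 read 9.45, 10.1, 9.6 and 9.19 (1.13 ± 0.26, adjusted p = 0.0303) and Myh1 read 7.15, 7.9, 7.35 and 7.01 (0.93 ± 0.22, adjusted p = 0.0327), both also above all KHR tumours. Ttn read 6.76, 7.03, 6.5 and 6.49 in KHR-N+/-, against 6.02, 5.4, 5.84, 5.25 and 6.2 in KHR, without overlap (0.95 ± 0.24, adjusted p = 0.0465). Mybpc1 read 5.89, 6.52, 6.1 and 5.84 in KHR-N+/-, overlapping KHR replicate 4 (0.81 ± 0.20, adjusted p = 0.0415). Of the fibroblast and matrix genes, 1 of 7 rose here. The count was 0 with only the groups compared in the fit, where Myoz2 was lost too, 1 without background correction or detection filter, 2 with offset 50, median scaling or the replicate block, and 15 with array weights. Except for Myoz2, these calls also rested on single tumours: the count was 1 without KHR-N+/- replicate 1, 2 or 3 or without KHR replicate 2 or 3, 2 without KHR replicate 1, and 3 without KHR-N-/- replicate 5, KR-N-/- replicate 2, 3 or 4 or KR-N+/- replicate 3.

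Between KHR-N-/- and KHR-N+/- tumours 0 of the 35 members passed in limma, and 0.103% of all genes did (0.0719% higher, 0.0308% lower). At an unadjusted p under 0.05 there were 12 of the 35 (34.3%, against 8.14% of all genes), 30 of 35 lay above 0, and the median difference was 0.28. The largest differences were those of Mylpf (0.86 ± 0.24, adjusted p = 0.209), Sln (0.68 ± 0.28, 0.486), Actn2 (0.63 ± 0.26, 0.496) and Myl1 (0.62 ± 0.23, 0.412). Mylpf read 8.25, 7.63, 7.92 and 7.64 in KHR-N+/- tumours, and all KHR-N-/- tumours lay above that. Mylpf, Myl1, Tnni2, Sln and Mb were the 5 members with all KHR-N-/- arrays above all KHR-N+/- arrays, against 2.91% of all genes (2.0% lay below). These 3 comparisons share groups with each other.

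In KR tumours the share of muscle genes that differed between the Notch1 genotypes was near that of all genes. Between KR-N-/- and KR-N+/- tumours 3 of 35 members rose (Tnnc1, Myh8 and Actn3), against 9.62% of all genes, and 4 fell (Ckm, Ckmt2, Mb and Myoz1), against 6.63%. Together the 7 members were 20.0% of 35, and 16.2% of all genes passed. The median difference was -0.26 (0.04 over all genes), and 11 of 35 lay above 0. With median scaling in place of quantile normalisation 0 of the 35 passed. With only probes detected on all arrays, which Tnnc1, Myh8 and Actn3 lack, 0 members were higher and 3 lower. Of the energy and oxygen genes 3 of 6 were lower, while Eno3 (-0.50 ± 0.21, adjusted p = 0.0932), Pgam2 (-0.35 ± 0.28, 0.427) and Pygm (0.07 ± 0.15, 0.817) did not pass.

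Tnnc1, the slow troponin C, read 6.06, 5.92, 5.64 and 5.95 in KR-N-/- tumours, against 4.33, 4.59, 5.42, 4.78 and 4.47 in KR-N+/- tumours. Tnnc1 was detected on 4 of 4 KR-N-/- arrays and 3 of 5 KR-N+/- arrays. All KR-N-/- tumours lay above all KR-N+/- tumours, by 1.17 ± 0.21 (2.25-fold, adjusted p = 0.00116). Myh8, the perinatal myosin, read 5.52, 5.69, 5.3 and 5.43 in KR-N-/- and 4.8, 4.45, 4.45, 4.82 and 4.6 in KR-N+/-, also without overlap (0.86 ± 0.16, 1.82-fold, adjusted p = 0.00157). Its other probe, which is dimmer, gave 0.35 ± 0.13 (adjusted p = 0.0648). Actn3 read 5.38, 5.51, 5.44 and 5.94 in KR-N-/- and 5.29, 5.17, 4.88, 5.15 and 5.15 in KR-N+/- (0.44 ± 0.13, adjusted p = 0.021), and the call was lost without KR-N-/- replicate 4 or KR-N+/- replicate 3. The dimmer kept probe of Actn3 lay closer between the groups, with means of 4.95 in KR-N-/- and 4.85 in KR-N+/- tumours. On their brighter or only probes, Tnnc1, Myh8 and Actn3 were the only members whose arrays did not overlap here, against 10.8% of all genes higher and 7.67% lower on every KR-N-/- array. Tnnt1, slow troponin T, read 6.67, 6.51, 6.66 and 6.96 in KR-N-/- and 6.55, 5.89, 6.25, 6.11 and 6.08 in KR-N+/- and did not pass (0.53 ± 0.23, adjusted p = 0.122). Nor did the other slow genes Myoz2 (0.21 ± 0.17, 0.418) and Mybpc1 (-0.35 ± 0.20, 0.24).

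Ckm read 5.68, 6.01, 6.38 and 7.0 in KR-N-/- tumours, against 7.84, 6.96, 6.76, 7.49 and 6.82 in KR-N+/- tumours (-0.91 ± 0.23, 1.87-fold lower, adjusted p = 0.00977). KR-N-/- replicate 4 alone reached the KR-N+/- range. Ckmt2 read 4.89, 5.34, 5.76 and 5.96 in KR-N-/- and 6.84, 6.07, 5.57, 7.24 and 6.46 in KR-N+/- (-0.95 ± 0.27, adjusted p = 0.0192), and Mb read 8.56, 8.83, 9.27 and 9.45 in KR-N-/- and 10.1, 9.44, 9.67, 10.1 and 9.1 in KR-N+/- (-0.65 ± 0.22, adjusted p = 0.0496). The second probes of Ckmt2 (-0.73 ± 0.23, adjusted p = 0.0304) and Mb (-0.69 ± 0.24, 0.0491) gave like values. The Mb call lies at the threshold and was lost in 15 of 23 fits that each left out an array. Myoz1 read 4.53, 4.55, 4.99 and 5.55 in KR-N-/- and 5.55, 5.28, 5.25, 5.72 and 5.26 in KR-N+/- (-0.51 ± 0.16, adjusted p = 0.0343). For these 4 genes KR-N-/- replicates 1 and 2 were the low tumours, replicate 4 lay among the KR-N+/- tumours, and the count of 7 was 4 without KR-N-/- replicate 1, KR-N-/- replicate 2 or KR-N+/- replicate 4.

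Most muscle genes did not pass between the KR genotypes. Among the fast genes Myl1 read 10.9, 10.9, 11.4 and 12.1 in KR-N-/- and 11.9, 11.6, 11.2, 12.2 and 11.2 in KR-N+/- (-0.28 ± 0.23, adjusted p = 0.433), and Myh4 had the largest difference that did not pass (-0.84 ± 0.33, adjusted p = 0.0813). Acta1 read 10.6, 10.7, 10.9 and 11.5 in KR-N-/- and 11.2, 10.5, 10.7, 11.3 and 10.8 in KR-N+/-, a difference of 0.01 ± 0.26 with a 95% interval from -0.53 to 0.55. Atp2a1 read 9.37, 10.1, 10.6 and 10.9 in KR-N-/- and 11.1, 10.2, 10.2, 11.0 and 10.4 in KR-N+/- (-0.31 ± 0.26, adjusted p = 0.436). The groups overlapped, and KR-N-/- replicate 1 lay below all other KR tumours. Of the fibroblast and matrix genes, 3 of 7 were higher in KR-N-/- than in KR-N+/- tumours (Col1a1, Col1a2 and Col5a1), with a mean level per array of 7.49 to 7.94 in KR-N-/- and 6.74 to 7.08 in KR-N+/-, and their part in the muscle values was not tested. Of the smooth muscle genes 1 of 6 was higher (Actg2, 1.00 ± 0.24, adjusted p = 0.00759). Of all genes 9.62% were called higher in this comparison.

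**Figure D4:**
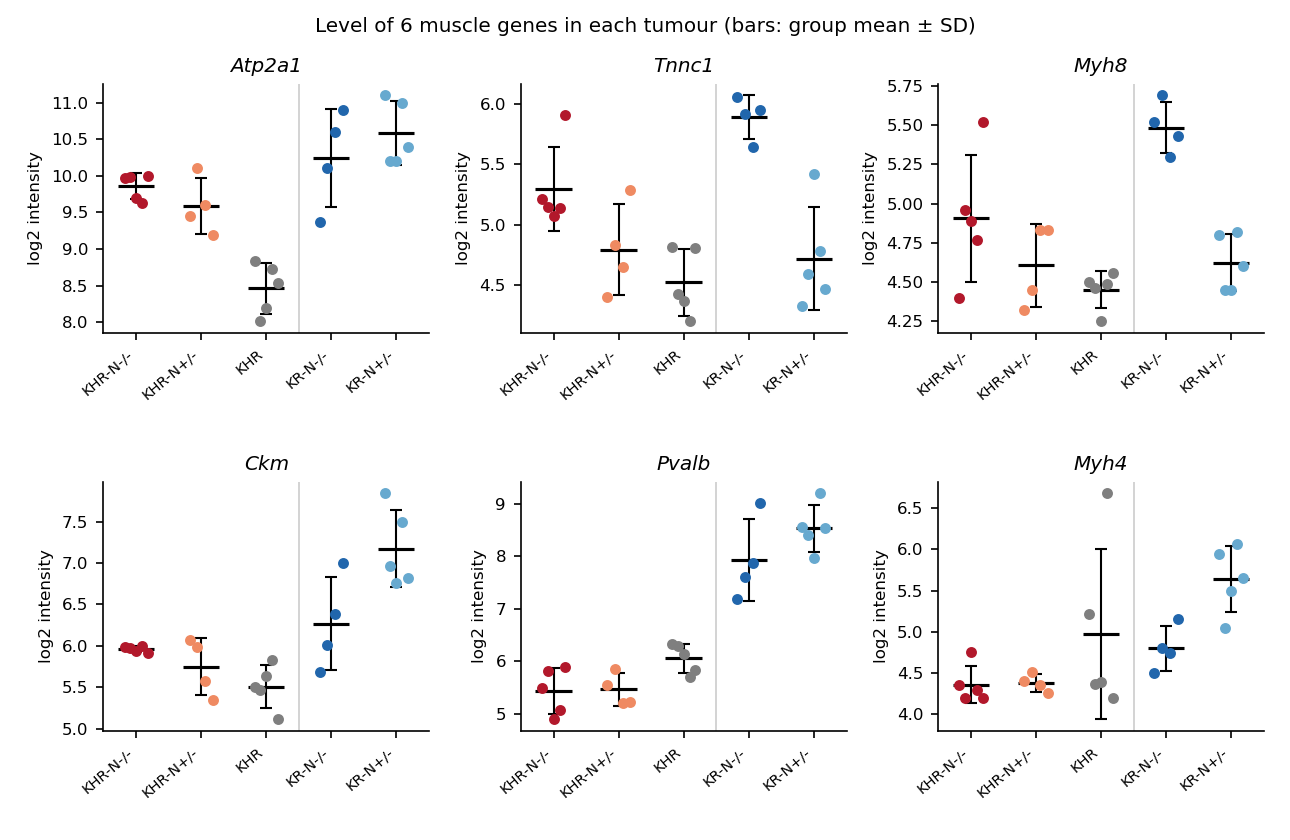
Log2 intensity of Atp2a1, Tnnc1, Myh8, Ckm, Pvalb and Myh4 on each array, by group, with bars for the group mean ± SD (n = 4 or 5); each panel has its own vertical scale. Tnnc1 and Myh8 are higher in KR-N-/- than in KR-N+/- tumours on every array, Ckm is mostly lower there, and Pvalb is low in all KHR-type tumours.

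The Notch1 effect (N-/- minus N+/-) was then compared between the tumour types. In limma 0 of the 35 members passed this interaction test, as did 0 of all genes; at an unadjusted p under 0.05 there were 12 members (34.3%) and 793 genes in all (8.15%). The interaction lay above 0 for 28 of 35 members, with a median of 0.53 (-0.03 over all genes). The lowest p values were those of Ckmt2 (1.44 ± 0.38, adjusted p = 0.334), Mb (1.19 ± 0.32, 0.334), Mylpf (1.27 ± 0.34, 0.351) and Ckm (1.12 ± 0.32, 0.361). Tnnc1 (-0.67 ± 0.30, adjusted p = 0.555) and Myh8 (-0.56 ± 0.23, 0.531) lay below 0. The interaction intervals were wide, from 0.66 to 2.23 for Ckmt2 and from -0.23 to 1.29 for Acta1.

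With 1 Notch1 copy, most fast contractile and energy genes, the calcium buffer parvalbumin and the calcium pump were lower in KHR than in KR tumours. Of 35 members, 18 were lower in KHR-N+/- than in KR-N+/- tumours and 0 were higher, against 2.37% of all genes called lower and 3.20% higher. The median difference was -0.81 (0.01 over all genes), and for 17 members every KHR-N+/- array lay below every KR-N+/- array, against 4.61% of all genes (4.79% lay above on every array). Of the fast genes 8 of 11 were lower, of the energy genes 5 of 6, of the shared sarcomere genes 3 of 6, of the calcium genes 2 of 7 and of the slow genes 0 of 4. Of the other cell types' genes, 1 of 6 smooth muscle genes was lower as well (Acta2, smooth muscle actin, -1.30 ± 0.36, adjusted p = 0.032), with a mean level of the list per array of 5.84 to 6.45 in KHR-N+/- and 6.35 to 6.63 in KR-N+/-, and its part in the muscle result was not tested. Of the fibroblast and matrix genes 0 of 7 passed and of the epithelial genes 0 of 4. Array intensity moved with these groups: it was 282.9 to 366.4 in KHR-N+/- and 142.4 to 360.4 in KR-N+/-, and with mean array intensity as a covariate 2 members passed. With median scaling in place of quantile normalisation, which moved the median of all genes by 0.65 in this comparison, 4 members passed (3 lower, 1 higher), the members' median was -0.71 relative to all genes, and Tnnc2 and Des turned to above 0 (0.17 and 0.16).

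Pvalb had the largest difference of all members between the tumour types. It read 5.55, 5.86, 5.21 and 5.23 in KHR-N+/- tumours, against 8.56, 8.4, 7.96, 9.2 and 8.54 in KR-N+/- tumours, a difference of -3.07 ± 0.29 (8.41-fold lower, adjusted p = 5.2e-07). The groups were far apart on every array. Ckm read 6.07, 5.99, 5.58 and 5.35 in KHR-N+/-, against the KR-N+/- values given above (-1.43 ± 0.23, 2.68-fold lower, adjusted p = 0.000571). Myh4 read 4.4, 4.51, 4.35 and 4.25 in KHR-N+/- and 5.94, 5.05, 5.49, 6.07 and 5.65 in KR-N+/- (-1.26 ± 0.33, adjusted p = 0.0236). It was detected on 1 of 4 KHR-N+/- arrays and on 5 of 5 KR-N+/- arrays. Mylpf read 8.25, 7.63, 7.92 and 7.64 in KHR-N+/- and 9.24, 8.91, 8.78, 9.59 and 8.91 in KR-N+/- (-1.22 ± 0.24, adjusted p = 0.00346). Mb read 8.66, 8.93, 8.61 and 7.99 in KHR-N+/- and differed by -1.13 ± 0.22 (adjusted p = 0.00333), and Tcap read 6.58, 7.08, 6.33 and 6.48 in KHR-N+/- and 8.27, 7.2, 7.52, 8.37 and 7.13 in KR-N+/- (-1.08 ± 0.25, adjusted p = 0.0098). In none of these 6 genes did the groups overlap.

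Further fast and energy genes were lower by about 1 log2 unit: Tnni2 (-1.06 ± 0.21), Myl1 (-1.06 ± 0.23), Eno3 (-1.07 ± 0.21), Ckmt2 (-1.07 ± 0.27) and Pgam2 (-0.99 ± 0.28), with adjusted p values from 0.00258 to 0.0365. None of the slow genes passed: Myoz2 differed by 0.01 ± 0.17, Tnnc1 by 0.07 ± 0.21, Tnnt1 by -0.39 ± 0.23 and Mybpc1 by -0.54 ± 0.20. Myh8 differed by -0.01 ± 0.16, with a 95% interval from -0.35 to 0.32. The 18 calls depended on single tumours for the weaker genes: the count was 11 without KHR-N+/- replicate 1, 10 without KHR-N+/- replicate 3 or KR-N+/- replicate 1, and 9 without KHR-N+/- replicate 4 or KR-N+/- replicate 4. Pvalb, Ckm, Mylpf, Mb, Tcap, Tnni2, Myl1, Eno3 and Mybpc2 passed in every one of these fits.

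In tumours without Notch1, parvalbumin was again the member that differed most between the types. Of 35 members, 4 were lower in KHR-N-/- than in KR-N-/- tumours and 0 were higher, against 6.50% of all genes called lower and 6.31% higher, and the median difference was -0.30 (-0.03 over all genes). For 4 members every KHR-N-/- array lay below every KR-N-/- array, against 10.9% of all genes (9.19% lay above). Pvalb read 5.49, 5.81, 4.89, 5.08 and 5.89 in KHR-N-/- tumours, against 7.19, 7.61, 7.88 and 9.02 in KR-N-/- tumours, without overlap (-2.49 ± 0.29, 5.62-fold lower in KHR-N-/-, adjusted p = 1.51e-05). Actn3 read 4.73, 4.71, 4.51, 4.43 and 4.94 in KHR-N-/-, against the KR-N-/- values above (-0.90 ± 0.13, adjusted p = 0.000142), and its dimmer probe differed by -0.39 ± 0.15 (adjusted p = 0.1). Myh8 differed by -0.58 ± 0.16 (adjusted p = 0.0219), with overlap through KHR-N-/- replicate 5. Tpm2 in KHR-N-/- tumours lay below all KR-N-/- tumours, which read 10.1, 10.4, 10.0 and 9.96 (-0.52 ± 0.17, adjusted p = 0.0407), but lay at 0.16 with median scaling, where the median of all genes was 0.39 and that of the members 0.27. The dimmer Tpm2 probe overlapped, at 8.28 to 8.86 in KHR-N-/- and 8.55, 8.97, 9.07 and 9.49 in KR-N-/- tumours. The count of 4 was 1 with median scaling, where only Pvalb passed, 9 with only the groups compared, 2 with probes detected on all arrays, and 2 without KHR-N-/- replicate 1 or 4 or KR-N-/- replicate 1 or 2.

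Most fast and energy genes that separated the heterozygous tumours did not pass here. Mylpf differed by 0.05 ± 0.24 (95% interval -0.46 to 0.55), Myl1 by -0.16 ± 0.23 (-0.64 to 0.32), Tnnc2 by -0.17 ± 0.23 (-0.64 to 0.31) and Mb by 0.06 ± 0.22 (-0.40 to 0.53). Mybpc1 averaged 6.27 ± 0.28 in KHR-N-/- and 6.28 ± 0.12 in KR-N-/- (SD; interval of the difference -0.42 to 0.41). Whether the difference between tumour types changed with the Notch1 genotype is the interaction above, which 0 members passed.

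**Figure D5:**
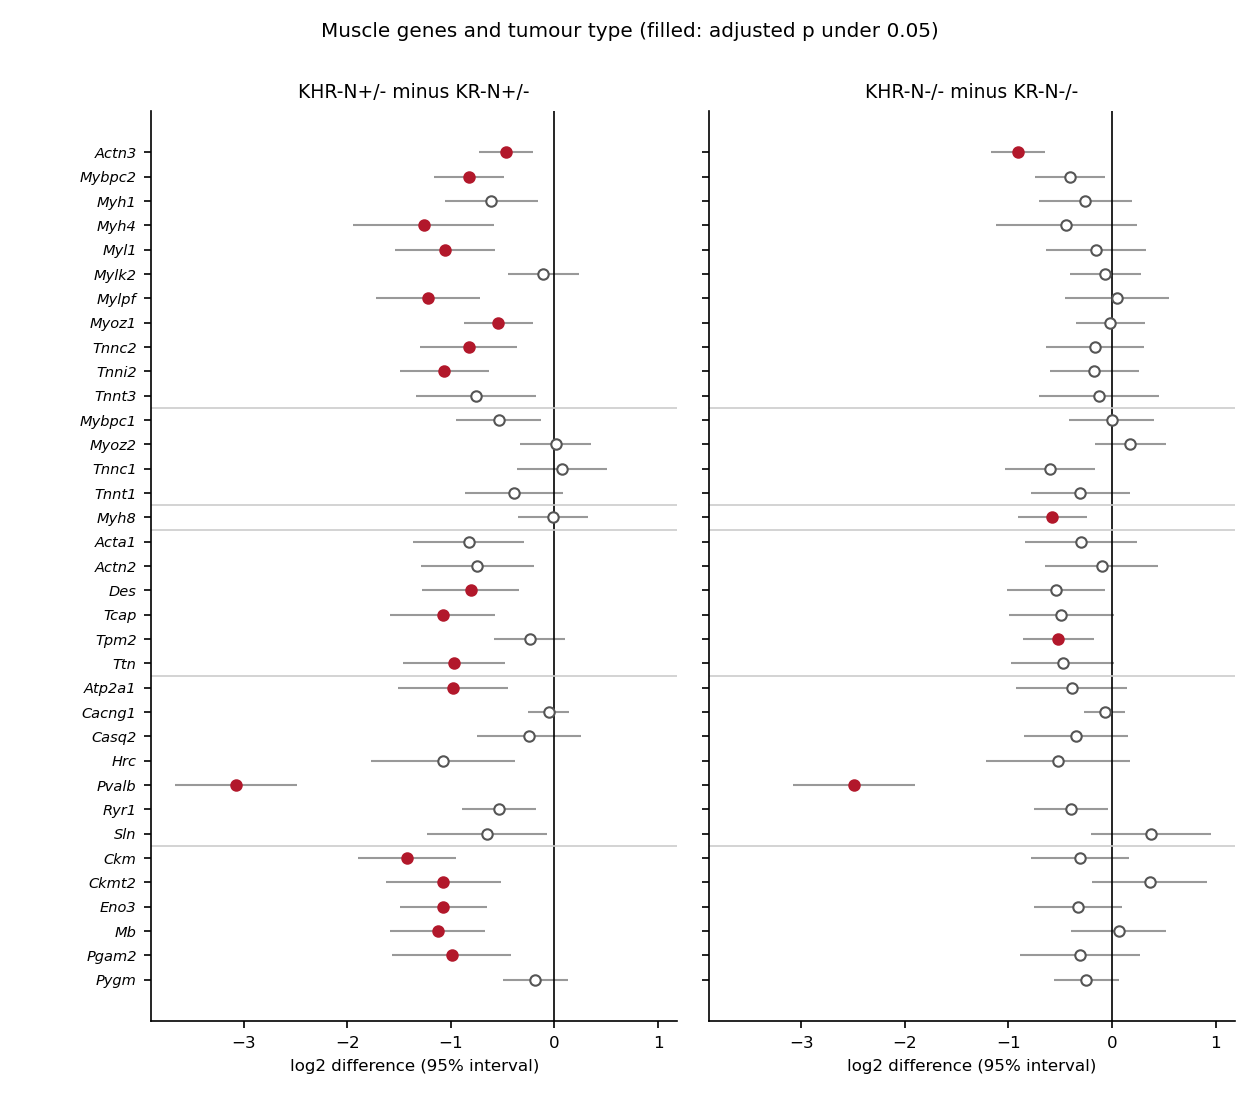
Log2 difference of each tested muscle gene with its 95% interval (limma, 23 arrays), for KHR-N+/- minus KR-N+/- (left) and KHR-N-/- minus KR-N-/- (right) on a common scale; filled points have an adjusted p under 0.05. On the left 18 genes are filled below 0 with Pvalb at -3.07, and on the right 4; with median scaling Tnnc2 and Des on the left and Tpm2 on the right lie above 0.

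Skeletal muscle genes outside the 46 were read from a further list of 40, of which 29 were on the array and 18 were tested. In KHR-N-/- against KHR tumours 5 of 18 rose, against 4.57% of all genes. Ankrd2, a stretch-responsive Z-disc protein (1.24 ± 0.21, adjusted p = 0.000609), Csrp3, the muscle LIM protein (0.93 ± 0.28, 0.0468), and Fabp3, a fatty acid carrier (0.92 ± 0.20, 0.00608), rose most. The others were Myom1, which cross-links the M-line (0.72 ± 0.18, 0.0141), and Xirp1, an actin-binding repair protein (0.60 ± 0.14, 0.00726). Xirp1 was detected on 2 of 5 KHR arrays, so the size of its difference rests on values near background. The other 13 did not pass, and the median of the 18 was 0.21. In KR-N-/- against KR-N+/- tumours 1 of 18 was higher and 1 lower, against 9.62% and 6.63% of all genes. Myl4, the embryonic and atrial light chain, rose (0.97 ± 0.28, adjusted p = 0.0194) and Fabp3 fell (-0.75 ± 0.22, 0.0213). In KHR-N+/- against KR-N+/- tumours 5 of 18 were lower, against 2.37% of all genes. They were led by the muscle cytochrome oxidase subunits Cox8b (-1.55 ± 0.31, adjusted p = 0.00378) and Cox7a1 (-1.38 ± 0.30, 0.00664), then Tmod4, a thin-filament cap (-0.89 ± 0.20, 0.0102) and Myom1 (-0.71 ± 0.19, 0.0287). Between KHR-N-/- and KR-N-/- tumours 1 of 18 was higher and 1 lower, against 6.31% and 6.50% of all genes. Ankrd2 was higher (0.71 ± 0.22, adjusted p = 0.0345) and Myl4 lower (-1.16 ± 0.28, 0.00845).

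Genes that build new muscle were mostly below detection. Of 12 precursor and regulator genes, 10 had a probe and 4 passed the detection rule, with Myod1, Myf5, Pax7, Musk, Chrng and Mymk among those that did not. Of these 4, 1 was higher in KHR-N-/- than in KHR tumours, against 4.57% of all genes: Myf6, a regulator kept on in mature fibres (0.51 ± 0.13, adjusted p = 0.0143). Myf6 was detected on 2 of 5 KHR arrays. Myog (0.03, adjusted p = 0.888), Chrna1 (0.04, 0.872) and Mef2c (0.41, 0.393) did not pass. Of the heart genes Myh6, Nppa, Mybpc3, Ryr2 and Actc1 were not detected on enough arrays. Of 3 heart genes tested, 1 was higher in KHR-type than in KR-type tumours, against 3.20% of all genes in N+/- and 6.31% in N-/- tumours. It was Nppb (1.39 ± 0.33, adjusted p = 0.0137, and 1.25 ± 0.33, 0.0158, in N+/- and N-/- tumours). Tnni3 and Myl7 did not pass in either. No salivary gland gene passed the detection rule. Myosin heavy chain genes are close copies in sequence, and whether the probes of Myh1, Myh4 and Myh8 also read each other's transcripts was not tested. The dimmer second probe of Myh1 averaged 4.56 and differed by 0.02 ± 0.17 between KHR-N-/- and KHR tumours, against 1.16 for the brighter probe.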

How the data were processed

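The deposited table gives, per the file headers, a mean bead intensity, a number of beads, a bead standard error (also an intensity) and a detection p-value for each probe and array. The intensity is linear and not normalised, judged from its values. RNA was taken up in Trizol and biotin-labelled with MessageAmp, per the labels' protocols. Per the submitters' processing notes the tools included GenomeStudio and Partek, whose versions are not given in the sources used here. A second deposited table with the authors' processed intensity served as an alternative.

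Intensities were background-corrected with normexp through the detection p-values (offset 16), quantile-normalised and converted to log2 values with limma 3.58.1 in R 4.3.3. Quantile normalisation gives every array the same distribution, so each change is relative to the other genes. Probes detected at p under 0.05 on at least 4 arrays were kept, and the brightest probe on average stood for a gene. A model of the 5 groups was fitted to 23 arrays with lmFit and eBayes, and p-values were adjusted by Benjamini-Hochberg over all 9732 genes. The step was tested on simulated data. SE is the moderated standard error. No slide is given in the files, so no batch was fitted, and correlations between arrays ran from 0.939 to 0.993. The number of arrays limits the precision. Gene symbols came from the platform annotation.

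The members and lists were chosen with earlier results of these data known. The values of every array were given for up to 6 members per direction, taken by size among those that passed in a comparison, and for the 2 brightest of each role; other members are given by their differences or counts. Alternatives were 13 other settings and 23 fits that each left out an array.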

Additional observations from a re-analysis of the deposited data

Results flagged for a closer look

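For 5 members 1 tumour lay far from the rest of its group. The values of 24 members described by array and 6 means over roles or all members were tested in 5 groups each, 150 in all, and chance gives about 1 in 20, or 7.5, so the number found does not exceed it. Myh4 read 4.75 in KHR-N-/- replicate 3, against 4.20 to 4.35 in the other KHR-N-/- tumours. Tnnc1 read 5.91 in KHR-N-/- replicate 5, against 5.07 to 5.21. Tnnc2 read 9.97 in KR-N+/- replicate 4, against 8.96 to 9.05. KHR replicate 4 was low for Tpm2 (9.05, against 9.78 to 10.1) and high for Pgam2 (7.51, against 5.77 to 6.19). The same KHR tumour also gave the highest KHR value of Myh4, Hrc, Sln and Tnnt3.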

How the results depend on the processing

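Counts of passing members are given here for 13 other settings and for leaving out each array in turn. For KHR-N-/- against KHR (21) the settings gave 16 (median scaling) to 28 (array weights, 26 higher and 2 lower) and the left-out arrays 19 to 22. For KHR-N+/- against KHR (5), the count was 1 with no background correction and with no detection filter, 2 with offset 50, with median scaling and with the replicate block, 0 with only the groups compared, 15 with array weights, 3 without KHR replicate 5 and KHR-N+/- replicate 3 together, and 1 to 5 with an array left out. KHR-N-/- against KHR-N+/- (0) gave 2 with array weights, and 0 in each fit with an array left out. KR-N-/- against KR-N+/- (7) gave 0 with median scaling, 3 with probes detected on all arrays (0 higher and 3 lower), and 4 to 8 with an array left out. KHR-N+/- against KR-N+/- (18) gave 4 with median scaling, 2 with mean array intensity as a covariate, and 9 to 22 with an array left out; Tnnc2 (0.17) and Des (0.16) turned sign with median scaling. KHR-N-/- against KR-N-/- (4) gave 1 with median scaling, 2 with probes detected on all arrays, 9 with only the groups compared, and 2 to 5 with an array left out; Tpm2 (0.16) turned sign with median scaling. The interaction stayed at 0 members throughout. Median scaling moved the median of all genes by 0.65 and 0.39 in the comparisons of tumour types, by 0.29 in KHR-N+/- against KHR, -0.15 in KHR-N-/- against KHR-N+/- and 0.11 in KHR-N-/- against KHR. Over 55 results for single genes and 1967 refits, 1721 kept direction and call, 243 lost the call and 3 turned sign. The cause of these shifts was not tested. Replicate numbers were not taken to pair the tumours. Pairs of tumours from different groups were compared by a correlation that is not the one between whole arrays (0.939 to 0.993). By this measure, 16 of 43 same-numbered pairs (37.2%) lay over 0.1, against 28 of 168 (16.7%) of pairs with different numbers. The ranges were -0.328 to 0.476 and -0.543 to 0.571. Of 23 arrays 9 correlated best with one of their own number, and the replicate block gave 21, 2, 0, 8, 17, 4 and 0 members in the order above. The mean number of beads differed between low and high replicate numbers. It was 27 and 39.6 in KHR-N-/- replicates 1 and 5, 28.4 and 39.6 in KHR replicates 1 and 5, and 29.2 and 40.4 in KR-N+/- replicates 1 and 5. Whether the arrays were run in batches was not tested. Probes near background limit what can be read from Myh4, Mylk2, Pygm and Cacng1. The same holds for Actn3, Tnnc1 and Myh8 in KHR tumours, Tnnc1 and Myh8 in KR-N+/- tumours, and Mybpc2 in KHR-type tumours.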
